A study of Mus musculus and Homo sapiens with 14 samples.

Results

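The 10 genes described here encode subunits of the transcription factor NF-κB, inhibitors that it induces in its own feedback, and targets of it that are not chemokines. They are Nfkbia, Bcl3, Il33, Csf1, Vcam1, Sod2, Nfkb1, Nfkb2, Relb and Rela, found by symbol among the 35288 gene identifiers of each mouse expression table. The list was drawn up with earlier results of these tables in view, and the comparison taken to have shaped it is MB1 with Oli-neu against MB1 alone. Their values in that comparison are therefore given as a description, with no test. RNA was sequenced after poly(A) selection with a directional kit in 10 mouse libraries, 2 biological replicates for each of 5 culture conditions. Oli-neu, a mouse line of the oligodendrocyte lineage immortalised with the t-neu oncogene, was grown beside MB1, beside the human Group 3 medulloblastoma line D341, or alone. MB1, a mouse line of Sonic hedgehog medulloblastoma, was grown beside Oli-neu or alone. MB1 came from tumours of Atoh1-cre:SmoM2 mice at postnatal day 12, in which Cre under the Atoh1 promoter switches on an activated form of the hedgehog signal transducer Smoothened in granule neuron precursors. All 5 conditions had EGF and bFGF at 20 ng/mL each, and in co-culture the lines were kept apart by an insert of 30 mm with a membrane of 0.4 µm pores. Each line stands for itself only, since 1 line of each kind was used and no other brain cells are listed in the cultures.

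NF-κB is a family of dimeric transcription factors built from RelA, RelB, c-Rel, p50 (from Nfkb1) and p52 (from Nfkb2). In resting cells the dimers are held in the cytoplasm by inhibitors of the IκB family, of which IκBα, the product of Nfkbia, is the best known. Signals from cytokine and pattern receptors activate the IκB kinase complex, IκBα is degraded, and the freed dimers enter the nucleus and bind κB sites. Nfkbia is itself a target, so new IκBα ends the response, and in the nervous system the pathway is known for inducing cytokines, adhesion molecules and chemokines in glia.

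The promoter sequences of these genes show where κB sites can stand beside the start of transcription. RefSeq promoter windows of GRCm38.p6 were found for 7 of the 10 genes, each running from 250 bases before the start to 50 bases after it. Vcam1, Nfkb1 and Relb had none in the table. A match to the κB consensus, searched on both strands, lay in a window of 5 of the 7 genes (Nfkbia, Bcl3, Csf1, Sod2 and Nfkb2), and in none of Il33 and Rela. Among all 27025 genes with a window 5.14% held a match, and among all 32851 windows 4.51%. A match is a stretch of letters and was not tested as a binding site. The windows of 4 genes with a match are printed below beside that of Il33, which has none, because these 5 genes cover the range of differences seen in MB1. Capitals mark the κB match, and each sequence runs 5′ to 3′ on the gene's strand from 250 bases before the transcript start that RefSeq gives through the first 20 bases after it.
Nfkbia: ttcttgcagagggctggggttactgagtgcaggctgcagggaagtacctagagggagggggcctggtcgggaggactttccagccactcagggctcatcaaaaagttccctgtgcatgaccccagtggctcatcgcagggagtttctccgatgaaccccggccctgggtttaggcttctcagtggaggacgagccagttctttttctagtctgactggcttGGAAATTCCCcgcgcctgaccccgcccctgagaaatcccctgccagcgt
Bcl3: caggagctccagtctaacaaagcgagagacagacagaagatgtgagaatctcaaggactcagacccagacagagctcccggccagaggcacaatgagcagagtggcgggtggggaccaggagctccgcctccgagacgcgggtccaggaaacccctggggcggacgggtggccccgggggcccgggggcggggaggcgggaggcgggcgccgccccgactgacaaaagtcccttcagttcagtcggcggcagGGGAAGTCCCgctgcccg
Csf1: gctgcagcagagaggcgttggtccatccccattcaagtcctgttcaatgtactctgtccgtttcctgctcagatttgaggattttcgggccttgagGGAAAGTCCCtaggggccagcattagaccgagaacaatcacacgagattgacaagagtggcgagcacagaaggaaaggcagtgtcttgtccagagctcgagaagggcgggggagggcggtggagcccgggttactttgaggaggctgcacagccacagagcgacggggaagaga
Sod2: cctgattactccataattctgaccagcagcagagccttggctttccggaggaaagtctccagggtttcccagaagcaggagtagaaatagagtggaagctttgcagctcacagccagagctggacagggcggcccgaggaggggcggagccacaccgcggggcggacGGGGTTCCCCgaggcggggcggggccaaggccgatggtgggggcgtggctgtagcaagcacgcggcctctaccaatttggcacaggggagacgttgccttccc
Il33: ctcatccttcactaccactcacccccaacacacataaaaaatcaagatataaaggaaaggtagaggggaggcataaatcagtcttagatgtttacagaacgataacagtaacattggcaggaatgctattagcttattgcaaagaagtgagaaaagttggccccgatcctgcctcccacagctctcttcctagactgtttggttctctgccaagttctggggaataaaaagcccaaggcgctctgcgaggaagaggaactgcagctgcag
The Nfkbia sequence is chr12:55492628-55492897 on the minus strand, with its match GGAAATTCCC beginning 29 bases before the start. The Bcl3 sequence is chr7:19822736-19823005 on the minus strand, and its match GGGAAGTCCC begins 2 bases after the first transcribed base. The Csf1 sequence is chr3:107760450-107760719 on the minus strand, with its match 154 bases before the start. The match in the Sod2 sequence, chr17:13007589-13007858 on the plus strand, begins 83 bases before that start and reads on both strands. This start lies inside the Sod2 gene as GENCODE gives it, which begins farther upstream. The Il33 sequence, the first of 2 Il33 windows, is chr19:29924863-29925132 on the plus strand. Nfkb2 had 3 windows with 3, 2 and 1 matches, the matches in some cases overlapping each other or lying in more than 1 window.

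Expression is given as TPM, a gene's share of all transcripts, which is scaled by transcript length, so that levels of different genes can be set side by side. Between 11596 and 12338 genes reached 1 TPM in a mouse library, and the sequencing depth is unknown. Libraries of a group correlated across genes with r from 0.953 to 0.977, where genes are not independent replicates. The leading principal component of the Oli-neu libraries (53.6% of variance) split replicate 1 from replicate 2 in all 3 groups. That of MB1 (49.8%) set MB1 alone replicate 2 (loading 0.83) apart from the other 3 libraries (-0.05 to -0.46). Oli-neu libraries had the oligodendrocyte lineage factor Sox10 at 171 to 235 TPM, against under 1 TPM in MB1. Of the other markers of that lineage, Olig1, Olig2 and Sox8 were higher in MB1. Olig2 was at 151 to 246 TPM in MB1 and 49.2 to 76.0 TPM in Oli-neu. Pdgfra, Cspg4 and Gpr17 were higher in Oli-neu, with Cspg4 at 86.3 to 103 TPM there and 17.3 to 22.4 TPM in MB1. The 7 markers together summed to 683 to 1165 TPM in MB1 and 458 to 602 TPM in Oli-neu. Most of the MB1 sum was Olig1, at 455 to 833 TPM. MB1 libraries had Zic1, a factor of the granule neuron lineage, at 101 and 125 TPM beside Oli-neu and at 84.3 and 63.7 TPM alone, and the hedgehog receptor Ptch1 at 14.2 to 18.4 TPM. The granule precursor factor Atoh1 was at 0 to 0.0143 TPM and the hedgehog effector Gli1 at 0.0822 to 0.178 TPM in MB1, so that these defining markers were nearly absent. No gene passed an adjusted p of 0.05 in any of the 4 comparisons (limma, Benjamini-Hochberg).

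MB1 cells grown beside Oli-neu had higher levels of Nfkbia, Bcl3 and 3 secreted or surface targets, Il33, Csf1 and Vcam1, than MB1 cells alone. Sod2 was lower, and the subunit genes differed in both directions. In 7 of the 10 genes both co-culture libraries lay above both monoculture libraries, in 2 both lay below, and in 1 they overlapped. Over all 12407 genes tested in MB1, 10.9% had both co-culture libraries above and 41.5% had both below. The rule used this comparison, and Bcl3 reached the minimum of 1 TPM for a test only through the co-culture. Nothing is therefore read from these counts or from the medians that follow. The median log2 fold change of the 10 genes was 0.44, against -0.17 for all genes tested. Scaling the libraries by median ratios moved the median of all genes to 0 and that of the 10 genes to 0.60. In bulk RNA a lower level can come from fewer cells of a type or from less RNA per cell, which cannot be told apart.

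**Figure D1:**
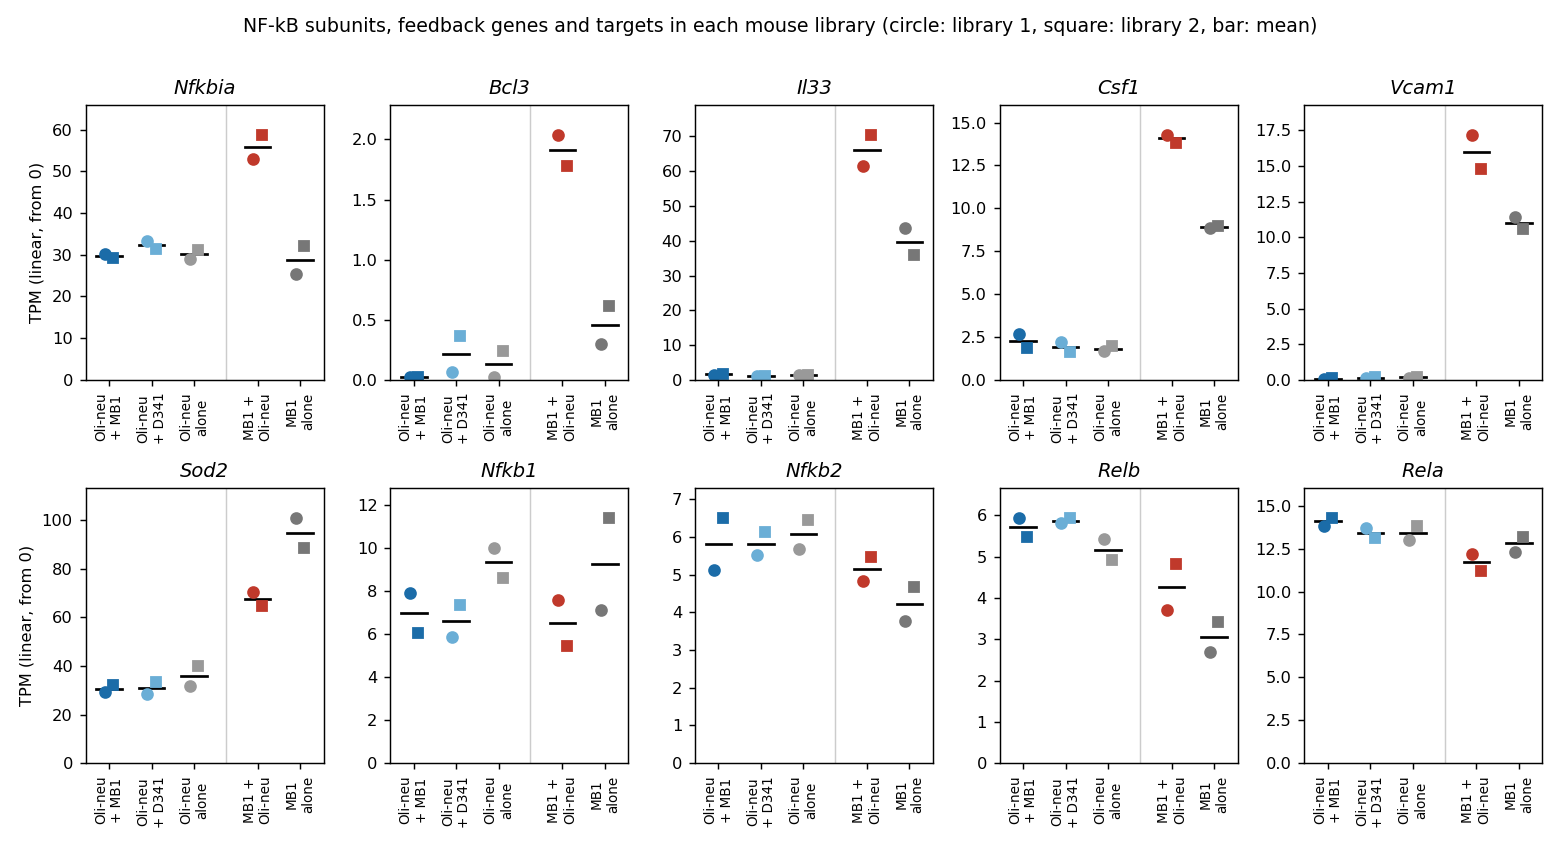
TPM of each of the 10 genes (y axis, linear from 0) in every mouse library of the 5 culture conditions (x axis); circles are replicate 1, squares replicate 2 and bars the mean of the 2. Nfkbia stands at 53.0 and 58.8 TPM in MB1 with Oli-neu and between 25.4 and 33.3 TPM in the other 8 libraries, whereas Il33, Csf1 and Vcam1 are higher in every MB1 library than in any Oli-neu library.

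The feedback inhibitor Nfkbia (chromosome 12, 55489410 to 55492647, GRCm38) was at 53.0 and 58.8 TPM in MB1 with Oli-neu, against 25.4 and 32.1 TPM in MB1 alone. The groups did not overlap, and the ratio of the means was 1.95 (0.94 on the log2(TPM + 1) scale used for every log2 fold change here, SE 0.18). In all other conditions Nfkbia was nearly level. It was at 30.2 and 29.3 TPM in Oli-neu with MB1, at 33.3 and 31.4 TPM in Oli-neu with D341 and at 29.0 and 31.2 TPM in Oli-neu alone. The order of its means was MB1 with Oli-neu, Oli-neu with D341, Oli-neu alone, Oli-neu with MB1 and MB1 alone. The last 3 groups overlapped their neighbours, so that MB1 with Oli-neu stood apart by more than the spread of the replicates and the other 4 groups lay close together.

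Bcl3 encodes a nuclear IκB protein that binds p50 and p52 homodimers and changes which genes they activate. It lies on chromosome 7 from 19808462 to 19822770 and was at 2.04 and 1.78 TPM in MB1 with Oli-neu, against 0.296 and 0.616 TPM in MB1 alone. All Oli-neu libraries had less than 0.37 TPM. Bcl3 reached the expression minimum of 1 TPM only through MB1 with Oli-neu, so it could enter this comparison only with a higher value there. The ratio of its means was 4.19, and its log2 fold change was 1.01 (SE 0.20), or 1.91 with a pseudocount of 0.1 TPM and 0.34 with 5 TPM.

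Of the secreted and surface targets, Il33 had the highest level. It encodes the alarmin interleukin-33, a nuclear cytokine that is released on cell damage and in the brain is made mainly by glia, and lies on chromosome 19 from 29925114 to 29960718. Il33 was at 61.4 and 70.5 TPM in MB1 with Oli-neu and at 43.6 and 35.9 TPM in MB1 alone, a ratio of 1.66 (log2 fold change 0.72, SE 0.18). Every MB1 library was far above every Oli-neu library, where the range was 1.01 to 1.69 TPM. The order of the groups was MB1 with Oli-neu, MB1 alone, Oli-neu with MB1, Oli-neu alone and Oli-neu with D341, with no overlap between neighbours. Its receptor gene Il1rl1 was below 0.03 TPM in all 10 libraries.

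Csf1, the growth factor of macrophages and microglia, lies on chromosome 3 from 107741048 to 107760469. Its level was 14.3 and 13.8 TPM in MB1 with Oli-neu, against 8.88 and 8.98 TPM in MB1 alone, with a ratio of 1.58 (log2 fold change 0.60, SE 0.14). In Oli-neu it ranged from 1.65 to 2.67 TPM, and all 3 Oli-neu groups overlapped. The other ligand of the same receptor, Il34, was at 2.35 and 2.45 TPM in MB1 with Oli-neu and at 0.751 and 1.32 TPM in MB1 alone (log2 fold change 0.76, SE 0.21, unadjusted p = 0.0155, limma adjusted p = 0.282), which did not pass. Without the co-culture only 1 library would have reached 1 TPM, too few for a test, and Il34 is named after its values were seen. The receptor gene Csf1r was below 0.02 TPM in every library of both lines.

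Vcam1, the adhesion molecule that binds integrins of the α4 type on leukocytes, lies on chromosome 3 from 116109949 to 116129688. It was at 17.2 and 14.8 TPM in MB1 with Oli-neu and at 11.4 and 10.6 TPM in MB1 alone, and these did not overlap. The ratio was 1.45 and the log2 fold change 0.49 (SE 0.16). In Oli-neu it stayed between 0.0725 and 0.179 TPM. Of the integrin genes it can bind, Itgb1 was at 366 and 375 TPM in MB1 with Oli-neu, against 327 and 250 TPM in MB1 alone (log2 fold change 0.37, SE 0.19, limma adjusted p = 0.389). Its α4 partner Itga4, chosen after its values were seen, was at 0.582 and 0.625 TPM in MB1 with Oli-neu and at 1.48 and 0.81 TPM in MB1 alone.

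Sod2, the superoxide dismutase of the mitochondrial matrix, went the other way. It lies on chromosome 17 from 13006846 to 13040063 and was at 70.3 and 64.5 TPM in MB1 with Oli-neu, below the 101 and 88.7 TPM of MB1 alone. The ratio was 0.71 and the log2 fold change -0.49 (SE 0.16), or -0.30 with median-ratio scaling. Sod2 was thus the highest of the 10 genes in MB1 alone. The cytosolic enzyme gene Sod1 was at 415 and 469 TPM in MB1 with Oli-neu and at 347 and 476 TPM in MB1 alone, which overlapped (log2 fold change 0.12, SE 0.21, limma adjusted p = 0.789). Sod3, whose product is secreted, was at 3.53 and 2.98 TPM in MB1 with Oli-neu and at 1.84 and 2.10 TPM in MB1 alone (log2 fold change 0.52, SE 0.17, unadjusted p = 0.0307, limma adjusted p = 0.299). Sod2 made up 14.4% and 12.0% of the summed TPM of these 3 genes in MB1 with Oli-neu, against 22.5% and 15.7% in MB1 alone. Its level carries an uncertainty, because 3110 bases of a Sod2 transcript are 98.3% identical to one of Rps6ka2, a gene at up to 8.42 TPM, and how reads were divided between them is not given in the sources used here.

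The subunit genes did not all differ in the same direction. Relb, the subunit of the non-canonical pathway on chromosome 7 (19606217 to 19629438), was at 3.71 and 4.82 TPM in MB1 with Oli-neu, against 2.69 and 3.42 TPM in MB1 alone (log2 fold change 0.38, SE 0.20). Nfkb2 on chromosome 19 (46304320 to 46312385), which gives the p52 partner of RelB, was at 4.84 and 5.46 TPM in MB1 with Oli-neu and at 3.76 and 4.68 TPM in MB1 alone (0.24, SE 0.18). Neither of these pairs overlapped, but the gaps between the groups were smaller than those of the targets. Nfkb2 overlaps Psd on the opposite strand over 299 bases of transcript. Psd was at up to 8.04 TPM, and the sources used here do not give whether strand was used in the quantification, so the level of Nfkb2 is uncertain.

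Nfkb1 on chromosome 3 (135584655 to 135691547), the p105 precursor of p50, was at 7.56 and 5.46 TPM in MB1 with Oli-neu and at 7.12 and 11.4 TPM in MB1 alone. These overlapped, and the log2 fold change of -0.43 (SE 0.28) came to 0.08 for replicate 1 of each group and to -0.94 for replicate 2. Without MB1 alone replicate 2, the library that stood apart, it was -0.13. Rela on chromosome 19 (5637483 to 5648130), which encodes the main transactivating subunit, was the most even of the 10 genes. Its level was 12.2 and 11.2 TPM in MB1 with Oli-neu, against 12.3 and 13.2 TPM in MB1 alone. The log2 fold change was -0.11 (SE 0.15) and changed sign to 0.06 with median-ratio scaling.

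**Figure D2:**
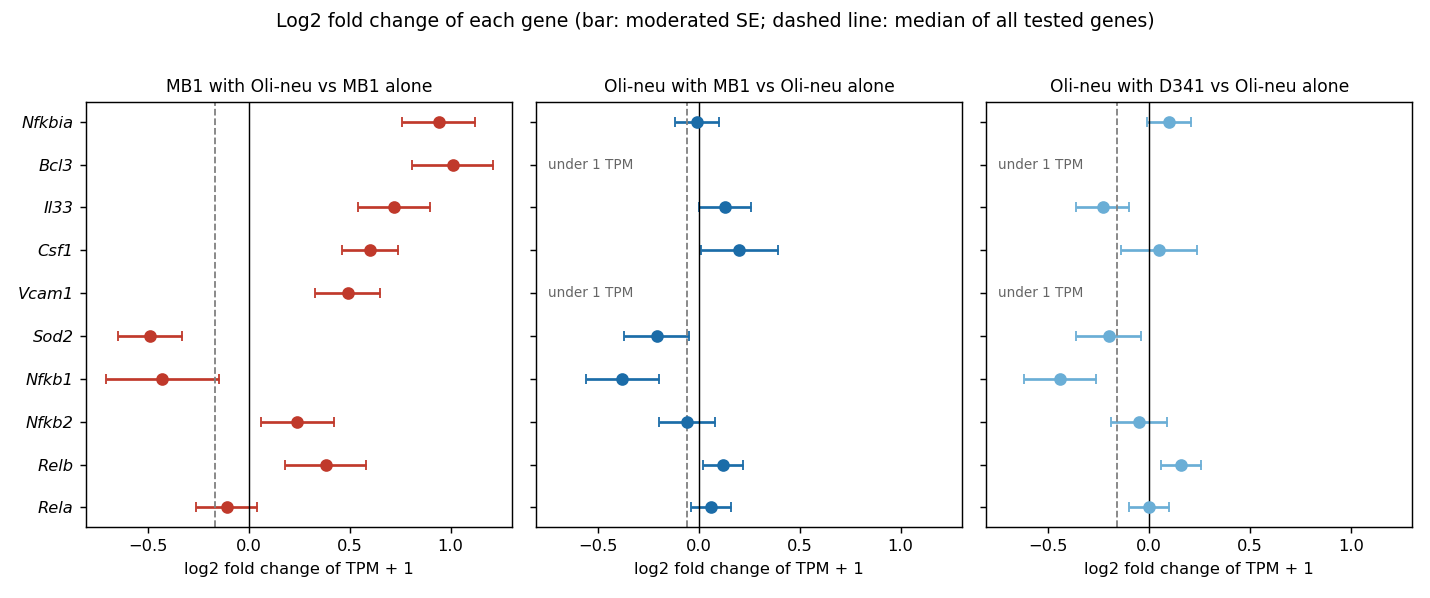
Log2 fold change of TPM + 1 (x axis) of each of the 10 genes (y axis) in MB1 with Oli-neu, Oli-neu with MB1 and Oli-neu with D341, each against the same line alone; points are the fitted values, bars the moderated SE and the dashed line the median of all genes tested. In MB1 the values run from -0.49 for Sod2 to 1.01 for Bcl3, and in Oli-neu from -0.44 for Nfkb1 to 0.20 for Csf1.

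In Oli-neu cells none of the genes passed in either co-culture, and Nfkbia, between 29.0 and 33.3 TPM throughout, was nearly level. The difference between the lines was not tested. Bcl3 and Vcam1 were under 1 TPM in every Oli-neu library, and 8 of the 10 genes were tested. None passed in Oli-neu with MB1 against Oli-neu alone, where 0% of all 12280 genes passed. At an unadjusted p under 0.05 (limma) none of the 8 was found, against 1.43% of all genes as higher and 4.65% as lower. In 3 of the 8 genes both libraries beside MB1 were above both alone, against 10.1% of all genes. These were Il33, Relb and Rela, with log2 fold changes of 0.13 for Il33 (SE 0.13, adjusted p = 0.945), 0.12 for Relb (SE 0.10, adjusted p = 0.925) and 0.06 for Rela (SE 0.10, adjusted p = 0.979). In 1, Nfkb1, both were below, against 24.0% of all genes. The median of the 8 genes was 0.03, against -0.06 for all genes. Nfkbia differed by -0.01 (SE 0.11, adjusted p = 1.0).

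Nfkb1 was at 7.90 and 6.05 TPM in Oli-neu with MB1 and at 5.86 and 7.36 TPM in Oli-neu with D341, against 10 and 8.61 TPM in Oli-neu alone. Both co-cultures thus lay below the monoculture without overlap, and they overlapped each other. The log2 fold change was -0.38 beside MB1 (SE 0.18, unadjusted p = 0.0829, limma adjusted p = 0.836) and -0.44 beside D341 (SE 0.18, unadjusted p = 0.0522, limma adjusted p = 0.365), and neither passed. Both comparisons share the Oli-neu alone libraries and are not independent.

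The remaining targets and subunits of Oli-neu overlapped between most conditions. Csf1 was at 2.67 and 1.88 TPM in Oli-neu with MB1 and at 2.21 and 1.65 TPM in Oli-neu with D341, against 1.68 and 1.98 TPM in Oli-neu alone, with log2 fold changes of 0.20 (SE 0.19, limma adjusted p = 0.928) and 0.05 (SE 0.19, limma adjusted p = 0.926). Sod2 was at 29.1 and 32.2 TPM in Oli-neu with MB1 and at 28.4 and 33.3 TPM in Oli-neu with D341, against 31.8 and 39.8 TPM in Oli-neu alone, with log2 fold changes of -0.21 (SE 0.16, limma adjusted p = 0.919) and -0.20 (SE 0.16, limma adjusted p = 0.574). Both genes thus had overlapping groups in each comparison with Oli-neu alone. Nfkb2 was at 5.12 and 6.51 TPM in Oli-neu with MB1 and at 5.53 and 6.12 TPM in Oli-neu with D341, against 5.69 and 6.45 TPM in Oli-neu alone. Rela was at 13.8 and 14.3 TPM in Oli-neu with MB1 and at 13.7 and 13.1 TPM in Oli-neu with D341, against 13.0 and 13.8 TPM in Oli-neu alone. Neither subunit gene passed, with log2 fold changes between -0.06 and 0.06 against Oli-neu alone.

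Beside D341 no Oli-neu gene passed against Oli-neu alone (0% of 12280 called by limma). None of the 8 had an unadjusted p under 0.05, against 1.61% of all genes as higher and 12.1% as lower. The median of the 8 genes was -0.03, against -0.16 for all genes, and with median-ratio scaling 0.14, against 0 for all genes. Nfkbia and Relb had both co-culture libraries above both alone, 2 of 8 against 7.12% of all genes. Nfkbia was at 33.3 and 31.4 TPM in Oli-neu with D341 and at 29.0 and 31.2 TPM in Oli-neu alone (log2 fold change 0.10, SE 0.11, adjusted p = 0.669). Relb was at 5.80 and 5.94 TPM in Oli-neu with D341 and at 5.42 and 4.92 TPM in Oli-neu alone (0.16, SE 0.10, adjusted p = 0.513). Il33 and Nfkb1 had both libraries below, 2 of 8 against 44.0% of all genes. Il33 was at 1.07 and 1.01 TPM in Oli-neu with D341 and at 1.42 and 1.36 TPM in Oli-neu alone (-0.23, SE 0.13, adjusted p = 0.455). All 7 oligodendrocyte precursor markers were tested in this comparison, and in 6 both co-culture libraries were below both alone, against 44.0% of all genes. The part of these markers in the values above was not tested.

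Set against each other, with D341 as the first of the co-cultures, again 0% of genes passed, while 0.790% were higher and 4.34% lower beside D341 at an unadjusted p under 0.05 (limma). Il33 was the one gene of the 8 below that unadjusted level. Its 1.07 and 1.01 TPM in Oli-neu with D341 stood against 1.55 and 1.69 TPM in Oli-neu with MB1, a log2 fold change of -0.36 (SE 0.13, unadjusted p = 0.039, adjusted p = 0.839). At these levels, close to the minimum of 1 TPM, the value depended on the pseudocount, between -0.59 at 0.1 TPM and -0.13 at 5 TPM. In 1 of the 8 genes, Nfkbia, both libraries beside D341 were above both beside MB1, against 6.60% of all genes. In 2, Il33 and Rela, both were below, against 28.8%.

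Grown alone, the lines differed more in Vcam1, Il33, Csf1 and Sod2 than in the subunits. The following ratios are of mean TPM in MB1 alone over Oli-neu alone, from separate tables, and were not tested. Vcam1 was at 11 ± 0.571 TPM in MB1 alone and at 0.174 ± 0.00783 TPM in Oli-neu alone (SD, n = 2), a ratio of 63.4. Il33 had a ratio of 28.6, Csf1 4.89, Bcl3 3.44 and Sod2 2.65, and in each of these 5 genes both MB1 libraries were above both Oli-neu libraries. The Bcl3 ratio is of levels under 1 TPM, 0.296 and 0.616 TPM in MB1 alone against 0.0276 and 0.237 TPM in Oli-neu alone. Nfkb2 and Relb were lower in MB1, with ratios of 0.696 and 0.59. Nfkbia (0.955), Nfkb1 (0.991) and Rela (0.952) overlapped between the lines. The lines were thus alike in the transcripts of RelA, p105 and IκBα, and apart in those of Vcam1, Il33, Csf1 and Sod2.

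The transcripts of the 5 subunit genes had Rela as the most abundant in every library. It held 42.0% and 40.6% of the summed TPM of the 5 subunit genes in MB1 with Oli-neu and 46.1% and 39.6% in MB1 alone, with 37.0% to 43.1% over the Oli-neu libraries. Relb held 12.7% and 17.4% in MB1 with Oli-neu, against 10% and 10.2% in MB1 alone, and Nfkb2 16.6% and 19.7%, against 14.1% and 14.0%. Nfkb1 held 26% and 19.7% in MB1 with Oli-neu, against 26.6% and 34.0% in MB1 alone. In Oli-neu, Nfkb1 held 23.2% and 18.1% beside MB1 and 18.5% and 22% beside D341, against 28.5% and 24.7% alone. The c-Rel gene Rel held at most 3.73% in any library. Per Rela transcript there were 4.34 and 5.22 Nfkbia transcripts in MB1 with Oli-neu, against 2.06 and 2.43 in MB1 alone. In Oli-neu this ratio stayed between 2.05 and 2.44 in all 6 libraries.

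**Figure D3:**
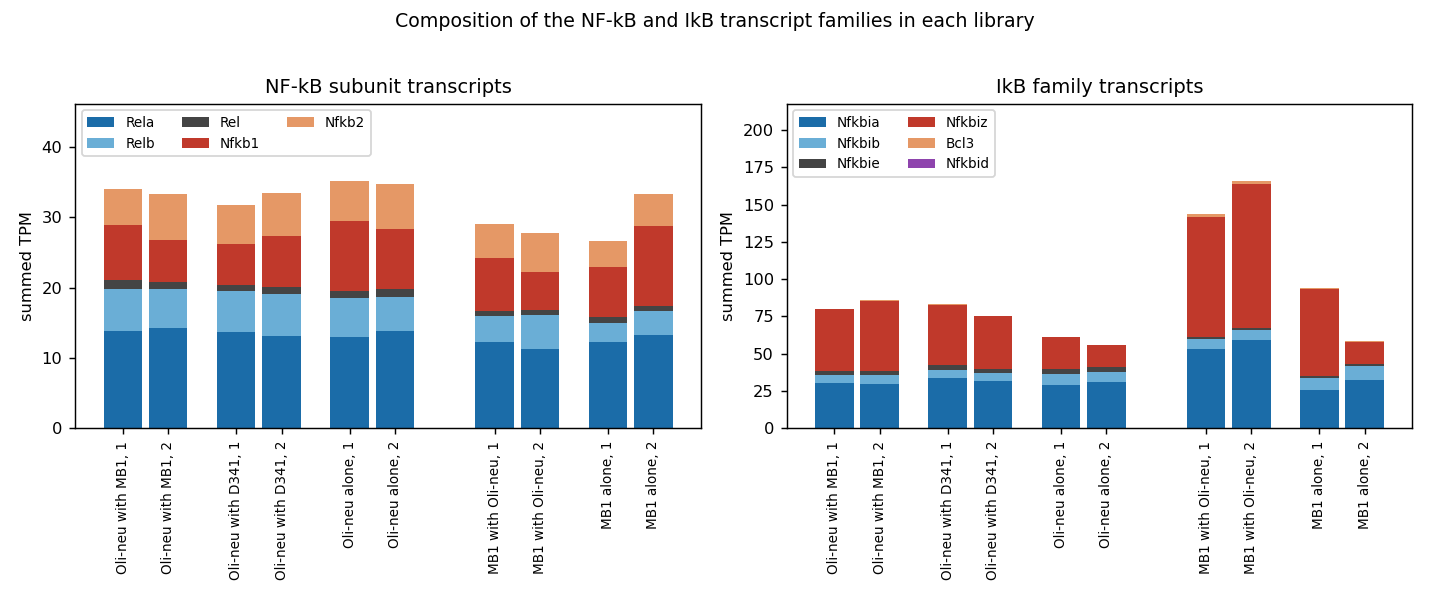
Stacked TPM (y axis, linear from 0) of the 5 NF-κB subunit genes (left) and of 6 genes of the IκB family (right) in each mouse library (x axis). The subunit sums run from 26.7 to 35.2 TPM, and the IκB sums reach 144 and 166 TPM in MB1 with Oli-neu against 94.0 and 58.5 TPM in MB1 alone.

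Within the IκB family the largest share in co-culture belonged to Nfkbiz, which encodes the nuclear protein IκBζ, itself an inducible regulator of secondary NF-κB targets. Nfkbiz held 56.1% and 58.3% of the family's summed TPM in MB1 with Oli-neu, against 62.5% and 25.3% in MB1 alone. It was at 80.5 and 96.6 TPM in MB1 with Oli-neu and at 58.7 and 14.8 TPM in MB1 alone. The monoculture replicates were far apart, and the log2 fold change of 1.54 (SE 0.64, unadjusted p = 0.0616, limma adjusted p = 0.333) came to 0.45 for replicate 1 of each group and to 2.62 for replicate 2. It passed without MB1 alone replicate 1 (2.49, adjusted p = 0.0472), when only the library that stood apart was left in that group. In Oli-neu it was at 41.3 and 47.2 TPM beside MB1 and at 40.8 and 35.2 TPM beside D341, against 21.3 and 14.5 TPM alone. These log2 fold changes were 1.28 beside MB1 (SE 0.21, unadjusted p = 0.00157, limma adjusted p = 0.715) and 1.06 beside D341 (SE 0.21, unadjusted p = 0.00356, limma adjusted p = 0.320), and neither passed. Nfkbib, which encodes IκBβ, was at 6.29 and 7.14 TPM in MB1 with Oli-neu and at 7.93 and 9.48 TPM in MB1 alone (-0.33, SE 0.17, limma adjusted p = 0.396).

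Other genes of the pathway were grouped by role, and in MB1 none of them passed over all genes. Of 10 further subunits and regulators tested, 4 had a higher and 6 a lower mean beside Oli-neu, with a median log2 fold change of -0.09. The most abundant, Commd1, which promotes the turnover of RelA, was at 131 and 124 TPM in MB1 with Oli-neu and at 153 and 171 TPM in MB1 alone (-0.34, SE 0.15, limma adjusted p = 0.35). Tnip2, which binds the ubiquitin-editing enzyme A20, was at 10.8 and 15.5 TPM in MB1 with Oli-neu and at 9.92 and 10.2 TPM in MB1 alone (0.33, SE 0.21, limma adjusted p = 0.453). The A20 gene Tnfaip3, another feedback target, named after its values were seen, was at 1.69 and 3.11 TPM in MB1 with Oli-neu and at 1.27 and 1.51 TPM in MB1 alone (0.48, SE 0.26, limma adjusted p = 0.403).

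Kinases and adaptors had a median near that of all genes. Of 24 tested in MB1, 19 had a lower mean beside Oli-neu. The median of the 24 was -0.25 (all genes -0.17), or -0.08 with median-ratio scaling (all genes 0). In 13 both co-culture libraries were below both alone, against 41.5% of all genes. Tbk1, a kinase related to the IκB kinases, was at 14.5 and 18.5 TPM in MB1 with Oli-neu and at 24.2 and 38.8 TPM in MB1 alone (-0.86, SE 0.28, unadjusted p = 0.027, limma adjusted p = 0.293). Irak1, a kinase below the receptors of interleukin-1, was at 25.0 and 38.3 TPM in MB1 with Oli-neu and at 41.6 and 43.4 TPM in MB1 alone (-0.44, SE 0.24, limma adjusted p = 0.402). Sharpin, of the linear ubiquitin ligase, was at 44.8 and 42.1 TPM in MB1 with Oli-neu and at 45.1 and 35.5 TPM in MB1 alone (0.11, SE 0.18, limma adjusted p = 0.757). The catalytic IκB kinase gene Ikbkb, chosen after its values were seen, was at 10.8 and 20.7 TPM in MB1 with Oli-neu and at 30.2 and 30.7 TPM in MB1 alone (-0.97, SE 0.31, unadjusted p = 0.0281, limma adjusted p = 0.297).

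Among 17 receptor genes 8 were tested in MB1, with 4 higher and 4 lower means and a median of 0.06. Of these 8, 1 reached the minimum only through the co-culture, so the counts and the median are a description. Tnfrsf1a, the main receptor of TNF, was at 75.4 and 104 TPM in MB1 with Oli-neu and at 83.3 and 35.6 TPM in MB1 alone, which overlapped (0.69, SE 0.44, limma adjusted p = 0.451). Tnfrsf12a, the receptor of TWEAK, was at 33.8 and 41.0 TPM in MB1 with Oli-neu and at 26.8 and 36.3 TPM in MB1 alone, also overlapping. The accessory chain gene Il1rap was at 9.66 and 9.27 TPM in MB1 with Oli-neu and at 13.4 and 11.4 TPM in MB1 alone (-0.35, SE 0.16, limma adjusted p = 0.360). The signal chain Il1r1 of the interleukin-1 receptor, named after its values were seen, was below 0.34 TPM in all 10 libraries.

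Ligand genes were scarcely expressed, with 2 of 11 tested in MB1. Il18 was at 34.8 and 30.8 TPM in MB1 with Oli-neu and at 43.3 and 23.3 TPM in MB1 alone, and Tnfsf12, which encodes TWEAK, was at 7.92 and 9.62 TPM and at 4.16 and 11.1 TPM in the same groups. Both overlapped. Tnfsf13b was below 0.26 TPM in all libraries. The classical inducers were near 0 in both mouse lines, with Tnf at no more than 0.0274 TPM and Il1b listed at 0 in every library, and Il1a at no more than 0.163 TPM. These 3 were chosen after their values were seen.

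Further non-chemokine targets of NF-κB were measured in MB1, with no test of the list. They were chosen with earlier results of these data known, so their counts and median are a description. Of 15 tested, 12 had a higher mean beside Oli-neu, with a median of 0.40, and in 9 both co-culture libraries were above both alone, against 10.9% of all genes. None passed, and 1 of the 15 reached the minimum only through the co-culture. At an unadjusted p under 0.05 (limma) 2 were higher, against 3.02% of all genes, and they are named after their values were seen. These 2 were the hyaluronan receptor gene Cd44, at 31.0 and 32.3 TPM in MB1 with Oli-neu against 18.1 and 19.0 TPM in MB1 alone (0.74, SE 0.14, unadjusted p = 0.00391, limma adjusted p = 0.282), and the plasminogen activator gene Plau, at 2.13 and 2.05 TPM against 1.02 and 1.06 TPM (0.60, SE 0.16, unadjusted p = 0.0147, limma adjusted p = 0.282). Gadd45b, a stress gene, was at 15.0 and 21.0 TPM in MB1 with Oli-neu and at 6.63 and 14.2 TPM in MB1 alone (0.80, SE 0.38, limma adjusted p = 0.370). The early response gene Ier3 was at 66.7 and 58.8 TPM in MB1 with Oli-neu and at 61.7 and 75.8 TPM in MB1 alone, and the hypoxia factor gene Hif1a at 41.5 and 34.3 TPM with Oli-neu and 47.9 and 38.1 TPM alone, both overlapping.

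Chemokines and the lipocalin Lcn2 were set beside these as the other targets of the pathway. Of 6 tested in MB1, 4 reached the minimum only through the co-culture and so had to be higher there, and no count or median of the list is read as a result. None passed, and 5 had an unadjusted p under 0.05 as higher, against 3.02% of all genes, with a median of 1.41. Cxcl10 was at 8.33 and 7.85 TPM in MB1 with Oli-neu and at 2.07 and 2.43 TPM in MB1 alone (1.49, SE 0.16, limma adjusted p = 0.210), and Cx3cl1 at 6.25 and 4.82 TPM with Oli-neu and 4.78 and 6.35 TPM alone. Ccl5 was under 1 TPM in MB1. In Oli-neu, Ccl5 was at 4.29 and 3.59 TPM beside MB1 and at 5.25 and 3.63 TPM beside D341, against 2.32 and 1.82 TPM alone (limma adjusted p = 0.715 and 0.320).

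**Figure D4:**
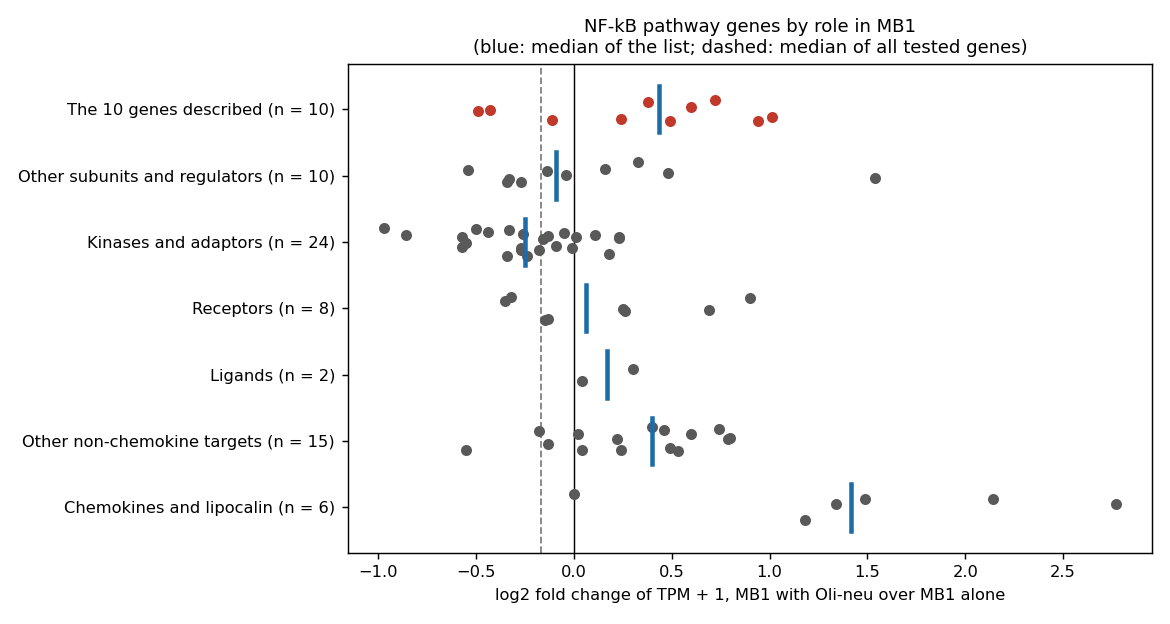
Log2 fold change of TPM + 1 in MB1 with Oli-neu over MB1 alone (x axis) for each tested gene of the 10 described and of 6 lists by role (y axis); each point is a gene, the blue bar the median of its list and the dashed line the median of all genes tested. The medians are 0.44 for the 10 genes, 0.40 for the other non-chemokine targets and -0.25 for kinases and adaptors, and 1.41 for chemokines and lipocalin, of which 4 of 6 reached the minimum only through the co-culture. All the lists were chosen with earlier results of these data known, and the medians are a description.

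The other pathway genes of Oli-neu gave no call. Medians of the lists by role with more than 1 gene tested ran from -0.08 to 0.10 beside MB1 (all genes -0.06). Beside D341 they ran from -0.15 to -0.05 (all genes -0.16). In the comparison beside MB1, 1 further subunit or regulator and 1 kinase or adaptor reached the minimum only through the co-culture. The single ligand tested, Il18, was at -0.13 beside MB1 and -0.29 beside D341, and the single chemokine tested, Ccl5, at 0.69 and 0.82. Gadd45b was at 36.5 and 51.8 TPM beside MB1 and at 52.6 and 76.0 TPM beside D341, against 27.5 and 35.7 TPM in Oli-neu alone (log2 fold change 0.46 with limma adjusted p = 0.876, and 0.99 with 0.320). Tnip2 was at 19.4 and 17.0 TPM beside MB1 and at 12.4 and 15.4 TPM beside D341, against 20.2 and 21.4 TPM alone (-0.19 with adjusted p = 0.920, and -0.56 with 0.320).

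Markers of other cell types were measured in MB1 beside these results. Of 12 microglia and macrophage markers 11 were under 0.5 TPM in all 4 MB1 libraries, among them C1qa, C1qb and Tyrobp at 0. Their sum was 11.6 to 21.8 TPM in MB1 with Oli-neu and 5.29 to 7.25 TPM in MB1 alone, and nearly all of it was Cd68, a lysosomal protein gene, at 11.5 and 21.7 TPM with Oli-neu and 4.88 and 6.78 TPM alone. All 7 fibroblast and pericyte markers were under 0.5 TPM, with sums of 0.555 to 0.579 TPM with Oli-neu and 0.221 to 0.448 TPM alone. Endothelial markers summed to 10.4 to 17.0 TPM with Oli-neu and 14.5 to 18.5 TPM alone, with Cdh5 and Cldn5 at 0. Most of the sum was Egfl7, at 7.04 and 12.6 TPM with Oli-neu and 15.6 and 12.4 TPM alone. Pecam1, which entered the test only through the co-culture, was at 2.65 and 3.94 TPM with Oli-neu and 0.946 and 1.47 TPM alone. Astrocyte markers, of which 6 of 7 reached 1 TPM in both groups, summed to 755 to 770 TPM with Oli-neu and 632 to 736 TPM alone, and Gfap was at 6.23 and 9.29 TPM against 4.17 and 2.67 TPM. Oligodendrocyte precursor markers summed to 683 to 814 TPM with Oli-neu and 1018 to 1165 TPM alone. The part of Cd68 and of the endothelial, astrocyte and precursor markers in the differences of the 10 genes was not tested.

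The genes most like Nfkbia over the 10 mouse libraries were ranked by Pearson's r of log2(TPM + 1) after each line's mean was subtracted, among 9248 genes. Among the first 5 were Lsp1 (r = 0.987), Ecm1 (0.979), Slc9a3r2 (0.977) and Col6a1 (0.975). These values share their libraries and are ranked from the top, so they are a description. Lsp1 averaged 6.24 TPM in MB1 with Oli-neu and 3.04 TPM in MB1 alone, and Ecm1 19.2 and 9.38 TPM in the same groups. The first 5 for likeness to the mean of the 10 genes, out of 9240 genes, included Lsp1 (0.963), Mamdc2 (0.963), Cox6b2 (0.957) and Phyh (0.956). Cox6b2, a subunit gene of cytochrome oxidase, averaged 148 TPM in MB1 with Oli-neu, against 67.8 TPM in MB1 alone. In the Oli-neu groups the means were at most 0.127 TPM for Lsp1, 0.0287 for Mamdc2, 0.0233 for Phyh and 0.461 for Cox6b2. Their r thus rests mainly on the MB1 libraries, the comparison taken to have shaped the list. Ecm1, Slc9a3r2 and Col6a1 were expressed in both lines. Their Oli-neu means lay close together, at 3.49 to 4.2, 4.56 to 4.98 and 31.0 to 33.8 TPM. Nfkbia was also nearly level in Oli-neu, so the r of these genes rests mainly on the MB1 libraries as well.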

How the data were processed

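Of 14 libraries in the series, the 10 mouse ones were used. The deposited tables, 1 for Oli-neu and 1 for MB1, give TPM per gene, each column adding up to 1000000. Per the submitters' processing notes the tools were DESeq2 1.22.2, Salmon 0.14.1, MultiQC 1.7 and FastQC 0.11.8, and the builds GRCm38 and GRCh38; no role is stated for any of them. Without counts, depth is unknown, and no counting interval is given. GENCODE M21 (GRCm38) gave symbols and positions for 35028 of 35288 identifiers, and RefSeq the promoter sequences.

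A gene entered a test when 2 or more libraries of its table had 1 TPM or more. limma 3.58.1 (R 4.3.3) was run on log2(TPM + 1), with the prior variance allowed to depend on the mean level. Tests were two-sided, with Benjamini-Hochberg adjustment over every gene in the test and a limit of 0.05. All 6 Oli-neu libraries went into a common model, and all 4 MB1 libraries into a separate one. The procedure was tested on simulated data in which libraries varied independently. The Oli-neu libraries shared differences by replicate number, so the simulation does not show how the fit behaves on them. TPM is given with the SD of 2 libraries and log2 fold changes with the moderated SE. For median-ratio scaling each library was divided by its median ratio to the mean profile.

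The 10 genes, the lists by role and the tests were chosen with earlier results of these data known. From each list by role, called members or otherwise the 3 with the highest mean TPM were named. Any other gene of these lists was named with its values known, among them Cd44, Plau, Nfkbib, Il1rl1 and Csf1r. Of the 5 genes most like Nfkbia, and of the 5 most like the mean of the 10 genes, 4 each are named; the other is not reported here. Settings varied were the pseudocount (0.1 or 5 TPM), the minimum (none or 5 TPM), the scaling, the variance trend, a term for replicate number, the set of libraries fitted, and the omission of each library. Labels call the 2 libraries of a condition biological replicates. The D341 libraries were not used here.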

Additional observations from a re-analysis of the deposited data

Results flagged for a closer look

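Among the 8 genes tested in both lines, Rela was the one whose libraries went opposite ways in MB1 and Oli-neu grown beside each other. Both libraries of MB1 with Oli-neu were below both of MB1 alone, at 12.2 and 11.2 TPM against 12.3 and 13.2 TPM. The log2 fold change was -0.11 (SE 0.15), and 41.5% of all genes had this order. Both libraries of Oli-neu with MB1 were above both of Oli-neu alone, at 13.8 and 14.3 TPM against 13.0 and 13.8 TPM. Here the log2 fold change was 0.06 (SE 0.10), and 10.1% of all genes had this order. The nearest libraries were almost equal, and each value was smaller than its SE. The difference between the lines was not tested. With median-ratio scaling the MB1 value was 0.06 and the Oli-neu value 0.13. Vcam1, too low to be tested in Oli-neu, also went opposite ways. It was at 17.2 and 14.8 TPM in MB1 with Oli-neu against 11.4 and 10.6 TPM in MB1 alone, and at 0.0725 and 0.106 TPM in Oli-neu with MB1 against 0.168 and 0.179 TPM in Oli-neu alone.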

How the results depend on the processing

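Over the alternatives, the values of the 10 genes in MB1 with Oli-neu against MB1 alone moved by less than the spread between replicates in 106 of 117 cases, and 11 moved by more. With median-ratio scaling they were 1.13 for Nfkbia, 0.91 for Il33, 0.78 for Csf1, 0.67 for Vcam1, -0.30 for Sod2, 0.40 for Nfkb2, 0.52 for Relb, -0.26 for Nfkb1 and 0.06 for Rela. Leaving out each MB1 library in turn gave 0.78 to 1.11 for Nfkbia, 0.85 to 1.16 for Bcl3, 0.58 to 0.86 for Il33, 0.57 to 0.63 for Csf1, 0.39 to 0.60 for Vcam1, -0.58 to -0.39 for Sod2, -0.73 to -0.13 for Nfkb1, 0.11 to 0.37 for Nfkb2, 0.22 to 0.53 for Relb and -0.17 to -0.06 for Rela. Moves of over 1.5 times came without MB1 alone replicate 1 for Nfkb1 (-0.73), Nfkb2 (0.11) and Relb (0.25), and without replicate 2 for Nfkb1 (-0.13), Nfkb2 (0.37) and Rela (-0.07). Without MB1 with Oli-neu replicate 1 they came for Rela (-0.17), and without replicate 2 for Nfkb1 (-0.23), Relb (0.22) and Rela (-0.06).

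The genes called among all tested were 0 in each comparison. In Oli-neu with MB1 against alone there were 3 with a pseudocount of 0.1 TPM, 1 with no filter, 2 with median-ratio scaling and 1 with no trend. In Oli-neu with D341 against alone there were 3 with no filter and 0 to 2 when libraries were left out (2 without Oli-neu with D341 replicate 2). Between the co-cultures there were 6 with no filter and 1 with no trend. In MB1 the range was 0 to 68 when libraries were left out, with 68 without MB1 alone replicate 1 (34 of them higher) and 1 without MB1 alone replicate 2. Leaving out a library assumes that the lone one varies like the other groups. The causes were not tested. At an unadjusted p under 0.05, MB1 had 375 higher and 1569 lower genes, and 835 and 589 with median-ratio scaling.

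Of the Oli-neu values of the 8 genes tested, 5 of 110 changed sign beside MB1, 5 of 110 beside D341 and 8 of 110 between the co-cultures. With median-ratio scaling Nfkbia was 0.05 beside MB1, Nfkb2 0.11 beside D341, and Nfkb1 and Rela 0.04 each between the co-cultures. Left-out libraries gave -0.06 to 0.04 for Nfkbia and -0.21 to 0.09 for Nfkb2 beside MB1, and -0.09 to 0.18 for Csf1 and -0.13 to 0.03 for Nfkb2 beside D341. Between the co-cultures they gave -0.33 to 0.02 for Csf1, -0.23 to 0.10 for Nfkb1, -0.14 to 0.16 for Nfkb2 and -0.01 to 0.09 for Relb.

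The libraries share only a replicate number. Deviations of same-numbered Oli-neu libraries correlated at 0.593 to 0.618, and those of MB1 at -0.115. With the replicate number as a block 0 genes were called in every comparison, and with the MB1 numbers crossed, a pairing chosen after seeing the data, 0 were called as well. The block changed the number of genes at an unadjusted p under 0.05 (limma). It went from 747 to 1305 for Oli-neu beside MB1, from 1684 to 2566 beside D341 and from 630 to 1114 between the co-cultures. In MB1 it went from 1944 to 1344. Every p given above comes from a fit without this term.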
